A study of Mus musculus with 14 samples.

Results

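Hox genes encode homeodomain transcription factors and lie in the clusters HoxA, HoxB, HoxC and HoxD, where the order of the genes along the chromosome follows the order of their expression along the body axis of the embryo. In blood, genes of the HoxA cluster and of the anterior part of HoxB are known to be active in stem cells and early progenitors and to be shut down as the cells mature. Hox proteins bind DNA with the TALE homeodomain cofactors of the Meis and Pbx families, the trithorax protein Mll (Kmt2a) keeps the clusters active, and Polycomb complexes keep them silent. The genes described here are those with a single symbol in the probe annotation made of Hox, a cluster letter and a position number, and they number 31 of the 12393 genes that carry a single symbol. Where a gene had several probe sets, the one that was highest on average in the 8 arrays of WT HSC was taken. HoxA gave 9 of them (chromosome 6), HoxB 9 (chromosome 11), HoxC 6 (chromosome 15) and HoxD 7 (chromosome 2). Probe sets shared by a pair of Hox genes, such as Hoxd3 with Hoxd4 and Hoxb7 with Hoxb8, were not used.

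RNA of hematopoietic stem cells (HSC) from mice of different ages and p53 genotypes was measured on Affymetrix MOE430A arrays, and each of the 7 groups had 2 arrays (A and B). HSC came from 12-mo-old p53+/m mice, which carry a truncated p53 allele (m), from 12-mo-old p53+/- mice, which have 1 copy of p53, and from wild-type (WT) mice of 2, 6, 12 and 21 mo, and whole bone marrow (WBM) came from WT mice of 2 mo. The mice were C57Bl/6 or had been back-crossed onto that strain, and the labels give males. HSC were sorted as side population cells, which pump out the dye Hoechst, with c-Kit and Sca-1 but no lineage markers on their surface. An HSC array held RNA from a pool of several mice, amplified linearly in 2 rounds, so the spread between arrays is that between pools, which may be partly technical. The ages used here are those of the sample titles, although a strain field in the labels states 2 mo throughout. The p53 transcript was not analysed here, so the genotypes rest on the labels.

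Values are GC-RMA levels on the log2 scale, on which a difference of 1 is a 2-fold change. Array medians lay between 3.93 and 4.10, and 42.7% to 43.6% of the probe sets of an array lay at log2 5 or above. The sort was visible in the markers: the mean level of 17 HSC markers was 8.09 to 8.71 on the HSC arrays of WT mice (8.35 and 8.42 in p53+/m, 8.10 and 8.37 in p53+/-), against 5.35 and 5.40 on the WBM arrays. The mean of 8 erythroid markers was 2.53 to 2.69 on the 12 HSC arrays, against 11.20 and 11.13 in WBM. The WT arrays of 12 mo differed from each other, and array 12 mo B read highest of the 8 WT HSC arrays for 19 of the 31 Hox genes (61.3%, against 31.1% of all genes), which touches each comparison that uses it. Among the 19, Hoxa2 alone reached log2 5 on at least 2 arrays, and the others are low readings. Array 12 mo B also had the highest array median (4.10). For Hoxa7 (3.49) and Hoxa9 (13.19) it read lowest of the 8 WT HSC arrays.

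Of the 31 Hox genes, 8 reached log2 5 on at least 2 of the 14 arrays (25.8%, against 54.8% of all genes), and all 8 lay in HoxA and HoxB. They were Hoxa2, Hoxa5, Hoxa7, Hoxa9 and Hoxa10 in HoxA and Hoxb3, Hoxb4 and Hoxb5 in HoxB, and Hoxb3, Hoxb4 and Hoxb5 are neighbors in their cluster. None of the 6 genes of HoxC and 7 of HoxD measured here reached that level on any array. Their highest readings were 4.35 for Hoxc6 (12 mo B) and 3.29 for Hoxd8 (12 mo B). A low reading can depend on the probe set, as a second probe set of Hoxa9, described below, read at most 3.07. The other 4 genes of HoxA read between 2.23 and 3.87, and the other 6 of HoxB between 1.37 and 5.44.
Most of the 23 genes under that level stayed nearly flat over the 14 arrays. Their range from the lowest to the highest array had a median of 0.16 log2 units, was under 0.5 for 18 of them, and ran from 0.06 for Hoxa13 to 2.45 for Hoxb1. Just inside the limit was Hoxa2, at 5.61 on WT 12 mo B and 5.10 on p53+/- A and at 4.64 or less on the other arrays. Just outside was Hoxb6, at 5.44 on WT 12 mo B and between 4.48 and 4.63 on the other 13. Hoxb1 came next, at 4.92 on p53+/m B against 2.86 on p53+/m A. Hoxc6, which varied most in its cluster, read 4.32 on WT 2 mo A, 4.35 on WT 12 mo B and 4.01 on WT 21 mo A, each time above the other array of that age (3.59, 3.60 and 3.58).

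**Figure D1:**
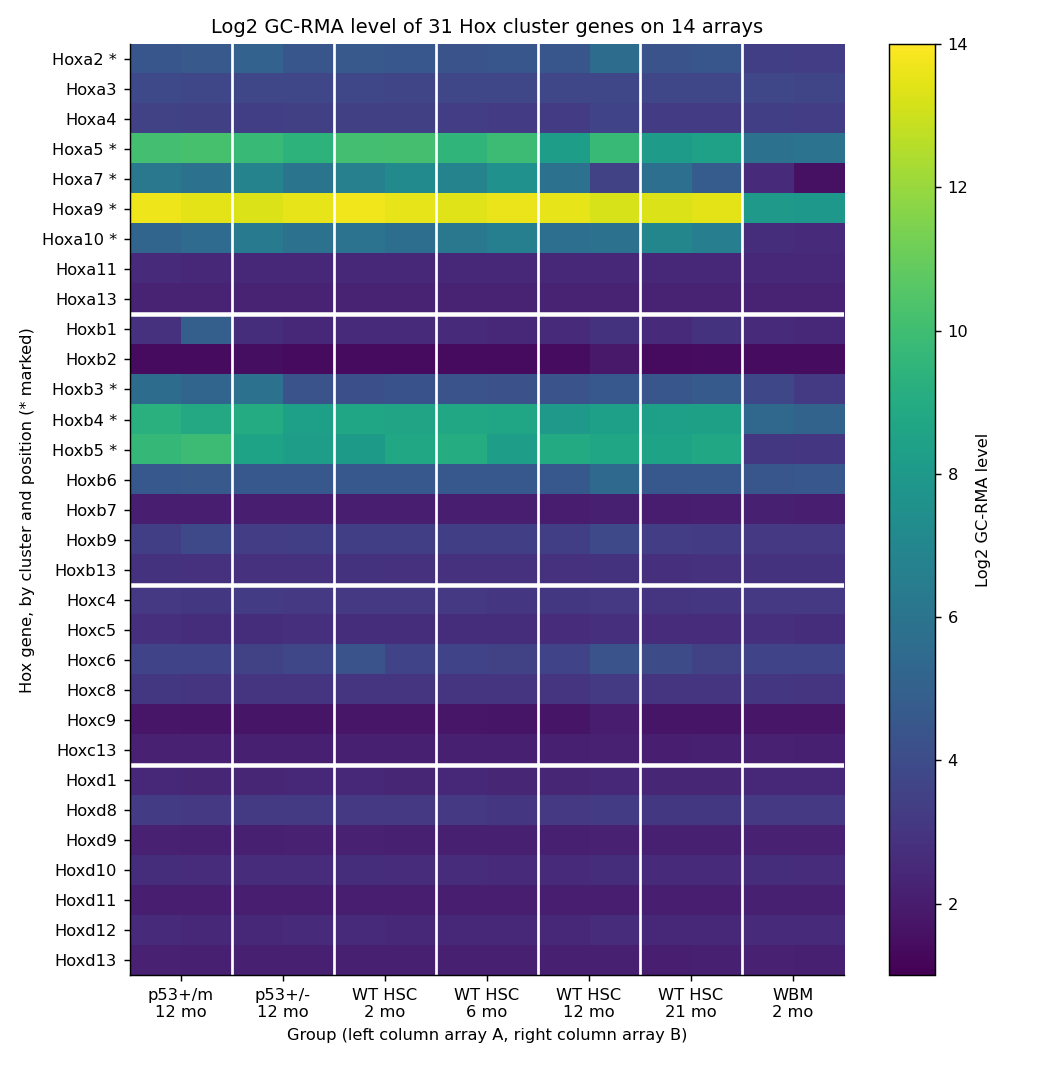
Log2 GC-RMA level (color) of the 31 Hox genes (rows, by cluster and position, with white lines between HoxA, HoxB, HoxC and HoxD) on the 14 arrays (columns, arrays A and B of each group). The 8 genes marked with an asterisk reach log2 5 on at least 2 arrays, and no reading of HoxC or HoxD is above 4.35.

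The comparison of HSC with WBM, both from 2-mo-old WT mice, asked which transcripts set the stem cells apart from the marrow they were sorted from. Hoxa5, Hoxa7, Hoxa9, Hoxa10, Hoxb4 and Hoxb5 were each higher in HSC, by 9.25-fold to 49.8-fold. These 6 of 31 Hox genes (19.4%) passed limma's test at a Benjamini-Hochberg adjusted p under 0.05 and 2-fold, where 13.3% of all genes were called higher. No Hox gene was called lower, against 10.5% of all genes, and at an unadjusted p under 0.05 with 2-fold 7 were higher (against 15.7% of all genes) and 0 lower (against 12.6%). The median difference over the 31 genes was 0.00 and that over all genes was −0.01. WBM is a mixture of cells, and in bulk samples of this kind fewer cells of a type and less RNA per cell cannot be told apart. The control probe set for the 5′ end of 18S ribosomal RNA read 10.91 and 10.88 in HSC, against 5.32 and 5.14 in WBM, and its part in the difference was not tested.

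Hoxa9, which sustains the expansion of HSC and drives myeloid leukemia when overexpressed, read 13.72 and 13.51 in HSC, against 8.05 and 7.92 in WBM. It differed by 5.64 log2 units (SE 0.15, adjusted p = 4.57e-06), or 49.8-fold. The HSC readings were far above the WBM readings, which were themselves above log2 5. Hoxa5, which favors myeloid over erythroid differentiation in human progenitors, read 10.12 and 10.18 in HSC, against 5.92 and 5.95 in WBM, a difference of 4.22 (SE 0.48, adjusted p = 0.00178). Hoxa10, whose overexpression disturbs myeloid and lymphoid differentiation, read 5.93 and 5.71 in HSC, against 2.70 and 2.53 in WBM, a difference of 3.21 (SE 0.20, adjusted p = 0.000162). Of these 3 genes Hoxa10 alone lay below log2 5 in WBM, where the floor of the array may make the fold too small.
Hoxa7, which with Hoxa9 is a target of MLL fusion proteins in leukemia, read 6.65 and 7.21 in HSC, against 2.57 and 1.56 in WBM, a difference of 4.86 (SE 0.87, adjusted p = 0.0100). Its WBM arrays were 1 log2 unit apart at the bottom of the scale, and the call was lost without HSC 2 mo B (4.58, adjusted p = 0.0608) and without WBM B (4.36, adjusted p = 0.0609).

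In HoxB, Hoxb5, which marks long-term repopulating HSC in reporter mice, read 8.09 and 8.81 in HSC, against 3.12 and 3.06 in WBM. The difference was 5.36 (SE 0.34, adjusted p = 0.000187), or 41.0-fold, from a WBM level below log2 5. Hoxb4, which expands HSC when overexpressed, read 8.64 and 8.58 in HSC, against 5.36 and 5.16 in WBM, a difference of 3.35 (SE 0.13, adjusted p = 2.03e-05). Hoxa2, Hoxa7, Hoxa10, Hoxb3 and Hoxb5 are among the 8 genes at log2 5 through HSC arrays alone, and the probe set of each gene was the one highest in WT HSC, so a higher level in HSC was partly built into the choice of the 8. Hoxb3, which acts with Hoxb4 in HSC proliferation, read 4.18 and 4.30 in HSC, against 3.81 and 3.22 in WBM, a difference of 0.73 (SE 0.21, adjusted p = 0.0580) that did not pass. It ran from 0.43 to 1.02 with 1 array left out, and passed without WBM A (1.02, adjusted p = 0.0173). Hoxa2, known for patterning the hindbrain and branchial arches, read 4.62 and 4.51 in HSC, against 3.39 and 3.35 in WBM, a difference of 1.19 (SE 0.34, adjusted p = 0.0521) that did not pass with all 10 WT arrays in the fit. Without WT 12 mo A or without WT 12 mo B, which enter the fit only through the spread, Hoxa2 passed (adjusted p = 0.000372).

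**Figure D2:**
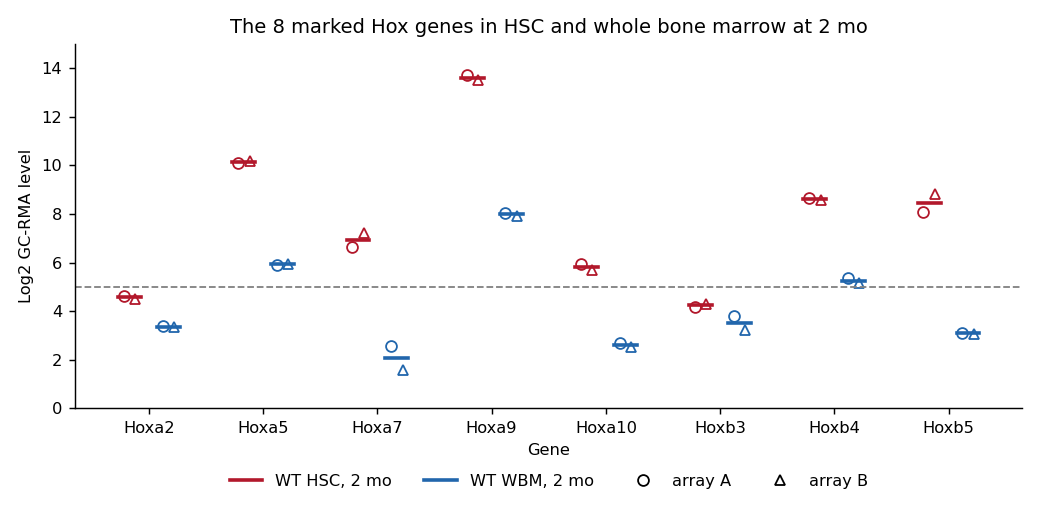
Log2 GC-RMA level (vertical axis) of the 8 Hox genes that reach log2 5 (dashed line) on at least 2 arrays, in HSC (left of each pair) and WBM (right) of 2-mo-old WT mice. Points are arrays A and B and bars are means. The means differ by 0.73 log2 units for Hoxb3 and by 5.64 for Hoxa9, and 5 of the 8 genes reach log2 5 on HSC arrays alone, so that the choice of the 8 favors HSC.

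Hoxa9 and Hoxb4 are the genes among these 8 with a second probe set, and the second probe sets did not show the difference. The second one of Hoxa9 read 2.10 on both HSC arrays of 2 mo, against 1.87 and 1.82 in WBM, and lay between 1.82 and 3.07 on all 14 arrays. The second one of Hoxb4 read 5.59 and 5.88 in HSC, against 5.33 and 5.59 in WBM, a difference of 0.28 (SE 0.20, limma adjusted p = 0.492). With both probe sets of a gene averaged, the difference was 2.94 for Hoxa9 and 1.81 for Hoxb4, and both genes passed. That average contains the probe set used above, so it gives no separate support for the difference.

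**Figure D3:**
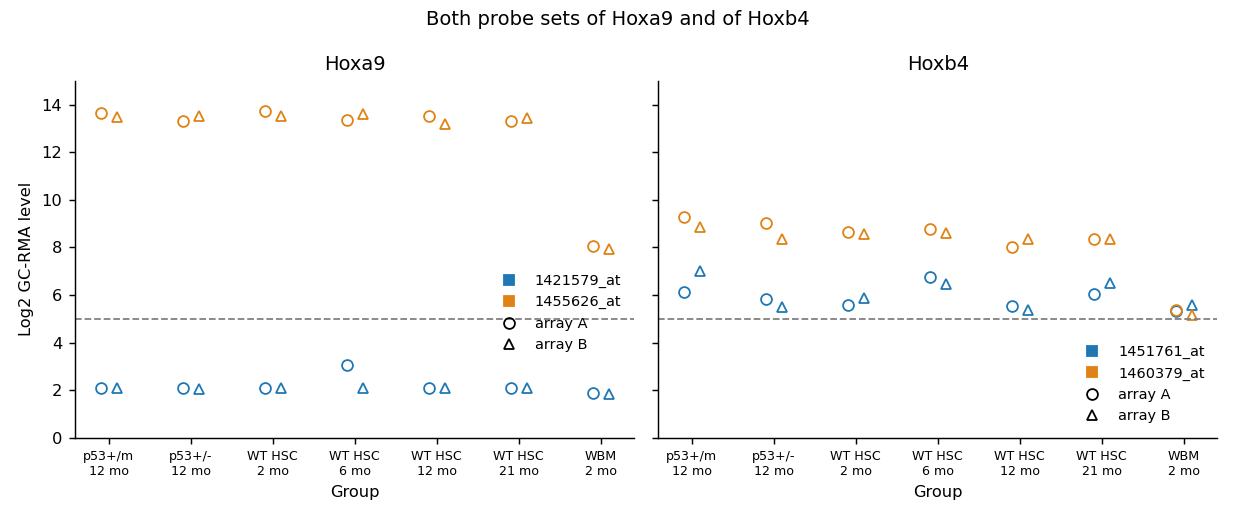
Log2 GC-RMA level (vertical axis) of both probe sets of Hoxa9 (left panel) and of Hoxb4 (right panel) in each group (horizontal axis), with a point for each array (orange for the probe set used, blue for the second one) and a dashed line at log2 5. The second Hoxa9 probe set stays between 1.82 and 3.07 everywhere, and the second Hoxb4 probe set reads 5.59 and 5.88 in HSC of 2 mo, against 5.33 and 5.59 in WBM.

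The promoters of 4 of the genes that were higher in HSC are shown because these genes share that difference in level, from 250 bases before to 50 after the RefSeq start (assembly GRCm38.p6). RefSeq promoters matched 18 of the 31 Hox genes and 6 of the 8 that reached log2 5. Capitals mark AGGTCA, the half-site of retinoid and other nuclear receptors (in 16.3% of 32851 promoters of the same length), TTTATG, the core of the caudal (Cdx) site (11.9%), and CCAAT, the CCAAT box (37.4%), each searched on both strands, so a match on the other strand appears as its reverse complement, and no 2 matches overlap in the windows shown. The sequences run 5′ to 3′ on the strand of the gene, which is minus for the HoxA genes and plus for Hoxb4.
Hoxa5 (chr6:52204538-52204837): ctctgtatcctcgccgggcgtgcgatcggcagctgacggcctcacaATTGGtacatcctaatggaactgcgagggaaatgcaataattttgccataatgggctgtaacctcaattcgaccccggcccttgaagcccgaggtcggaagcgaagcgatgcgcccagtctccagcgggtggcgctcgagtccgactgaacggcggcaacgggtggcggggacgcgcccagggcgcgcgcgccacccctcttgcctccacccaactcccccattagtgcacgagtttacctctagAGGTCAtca
Hoxa7 (chr6:52218524-52218823): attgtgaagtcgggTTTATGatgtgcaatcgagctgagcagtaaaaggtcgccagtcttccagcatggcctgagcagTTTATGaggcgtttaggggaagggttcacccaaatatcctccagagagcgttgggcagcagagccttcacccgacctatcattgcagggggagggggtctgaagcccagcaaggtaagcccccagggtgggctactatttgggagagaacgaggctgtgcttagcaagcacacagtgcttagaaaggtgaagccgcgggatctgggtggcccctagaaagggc
Hoxa9 (chr6:52227321-52227620): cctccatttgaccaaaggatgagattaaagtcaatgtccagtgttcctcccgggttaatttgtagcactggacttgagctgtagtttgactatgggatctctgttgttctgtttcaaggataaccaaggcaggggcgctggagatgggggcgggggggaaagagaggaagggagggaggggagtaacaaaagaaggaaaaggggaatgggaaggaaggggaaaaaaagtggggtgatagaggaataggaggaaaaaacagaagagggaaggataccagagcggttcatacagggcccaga
Hoxb4 (chr11:96318017-96318316): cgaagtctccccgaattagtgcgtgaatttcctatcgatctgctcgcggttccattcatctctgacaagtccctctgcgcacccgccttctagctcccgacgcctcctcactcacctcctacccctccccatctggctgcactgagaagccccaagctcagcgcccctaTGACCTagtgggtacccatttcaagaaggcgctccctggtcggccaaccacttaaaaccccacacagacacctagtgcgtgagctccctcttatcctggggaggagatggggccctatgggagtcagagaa
The CpG content of these windows differed widely among the 4 genes. It was 29 CpG in Hoxa5, 9 in Hoxa7, 4 in Hoxa9 and 14 in Hoxb4, where all promoters had a median of 7 (quartiles 3 and 20). AGGTCA was found in Hoxa5 and on the other strand in Hoxb4, TTTATG at 2 places in Hoxa7, CCAAT on the other strand in Hoxa5, and none of the 3 in Hoxa9. The promoters of Hoxa10, also called higher in HSC, are not printed. They held 21 and 12 CpG, and CCAAT lay on the other strand in the one with 21 CpG. Over the 20 Hox promoters, from the 18 matched genes, 5 held AGGTCA, 2 held TTTATG and 11 held CCAAT. These are matches of letters and not measured sites.

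The time course asked which transcripts change between 2 and 21 mo in HSC of WT mice. No Hox gene passed the age test (0 of 31, against 3.48% of all genes called in either direction), which was limma's 21 mo minus 2 mo contrast of a quadratic trend over the 8 WT HSC arrays. The lowest adjusted p among the 31 was that of Hoxa5, which was lower at 21 mo. At an unadjusted p under 0.05 with 2-fold, Hoxa5 was the 1 Hox gene lower (3.23%, against 7.72% of all genes) and 0 were higher (against 6.68%). The median change of the 31 genes was −0.02, as was that of all genes.

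Hoxa5 read 10.12 and 10.18 at 2 mo, 9.53 and 9.90 at 6 mo, 8.26 and 9.83 at 12 mo, and 8.19 and 8.45 at 21 mo. Both 21 mo arrays were below both 2 mo arrays and both 6 mo arrays, whereas 12 mo A read with the 21 mo arrays and 12 mo B with the 6 mo arrays. The change was −1.85 (SE 0.45, unadjusted p = 0.00691, adjusted p = 0.0869). Hoxa5 passed when either 12 mo array was left out, with −1.70 without 12 mo A and −2.0 without 12 mo B. Calls over all genes rose in these fits too. The change without both 12 mo arrays was −1.83 (adjusted p = 0.0143), and it passed. In that fit 567 of all genes were called higher and 686 lower, against 180 and 251 with all 8 arrays.
The 5′ control probe set of 18S RNA was low on the same WT arrays as Hoxa5, namely 12 mo A and both of 21 mo. It read 10.91 and 10.88 at 2 mo, 11.19 and 8.28 at 6 mo, 4.66 and 9.68 at 12 mo, and 4.84 and 5.44 at 21 mo. Its part in the level of Hoxa5 was not tested. The probe set for the middle of 18S RNA read 4.50 on 12 mo A, 4.70 and 4.98 at 21 mo, and 5.46 on 6 mo B, where Hoxa5 was at 9.90. The 5′ probe set read 5.71 and 7.18 in p53+/m HSC and 8.92 and 7.96 in p53+/- HSC.

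Hoxa7 read 6.65 and 7.21 at 2 mo, 6.80 and 7.57 at 6 mo, 5.91 and 3.49 at 12 mo, and 5.75 and 4.78 at 21 mo. All 4 arrays of 12 and 21 mo were below all 4 arrays of 2 and 6 mo, but the spread at 12 mo was wide and the change of −2.21 (SE 1.0, adjusted p = 0.291) did not pass. Hoxa9 stayed within a narrow range, at 13.72 and 13.51 at 2 mo, 13.37 and 13.63 at 6 mo, 13.53 and 13.19 at 12 mo, and 13.30 and 13.46 at 21 mo, with a change of −0.24 (SE 0.14, adjusted p = 0.417).
Hoxa10 ran the other way. It read 5.93 and 5.71 at 2 mo, 6.19 and 6.61 at 6 mo, 5.76 and 5.87 at 12 mo, and 6.97 and 6.54 at 21 mo, and its change of 0.67 (SE 0.36, adjusted p = 0.370) did not pass. Both 21 mo arrays were above all arrays of 2 and 12 mo, but 6 mo B read higher than 21 mo B.

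In HoxB the differences over age were small. Hoxb4 read 8.64 and 8.58 at 2 mo, 8.76 and 8.62 at 6 mo, 8.0 and 8.34 at 12 mo, and 8.34 and 8.37 at 21 mo (change −0.38, SE 0.18, adjusted p = 0.314). Hoxb5 read 8.09 and 8.81 at 2 mo, 9.07 and 8.22 at 6 mo, 8.93 and 8.70 at 12 mo, and 8.52 and 8.80 at 21 mo (change 0.22, SE 0.33, adjusted p = 0.790), so that the ages overlapped fully. Hoxb3 stayed below log2 5 at each age, at 4.18 and 4.30 at 2 mo, 4.34 and 4.20 at 6 mo, 4.31 and 4.60 at 12 mo, and 4.47 and 4.70 at 21 mo. Its change was 0.37 (SE 0.12, adjusted p = 0.15), and both 21 mo arrays were above both 2 mo arrays. Hoxa2 read 4.62 and 4.51 at 2 mo, 4.34 and 4.46 at 6 mo, 4.48 and 5.61 at 12 mo, and 4.34 and 4.47 at 21 mo, with a fitted change of 0.02 (SE 0.38, adjusted p = 0.975). Both 21 mo arrays of Hoxa2 were nevertheless below both 2 mo arrays, and the change was −0.16 with group means at the 4 ages.
Over the 31 genes, both 21 mo arrays lay below both 2 mo arrays in 17 (54.8%, against 49.4% of all genes) and above them in 2, Hoxa10 and Hoxb3 (6.45%, against 21.1% of all genes). Most of the 17 were genes that did not reach log2 5 on 2 arrays.

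**Figure D4:**
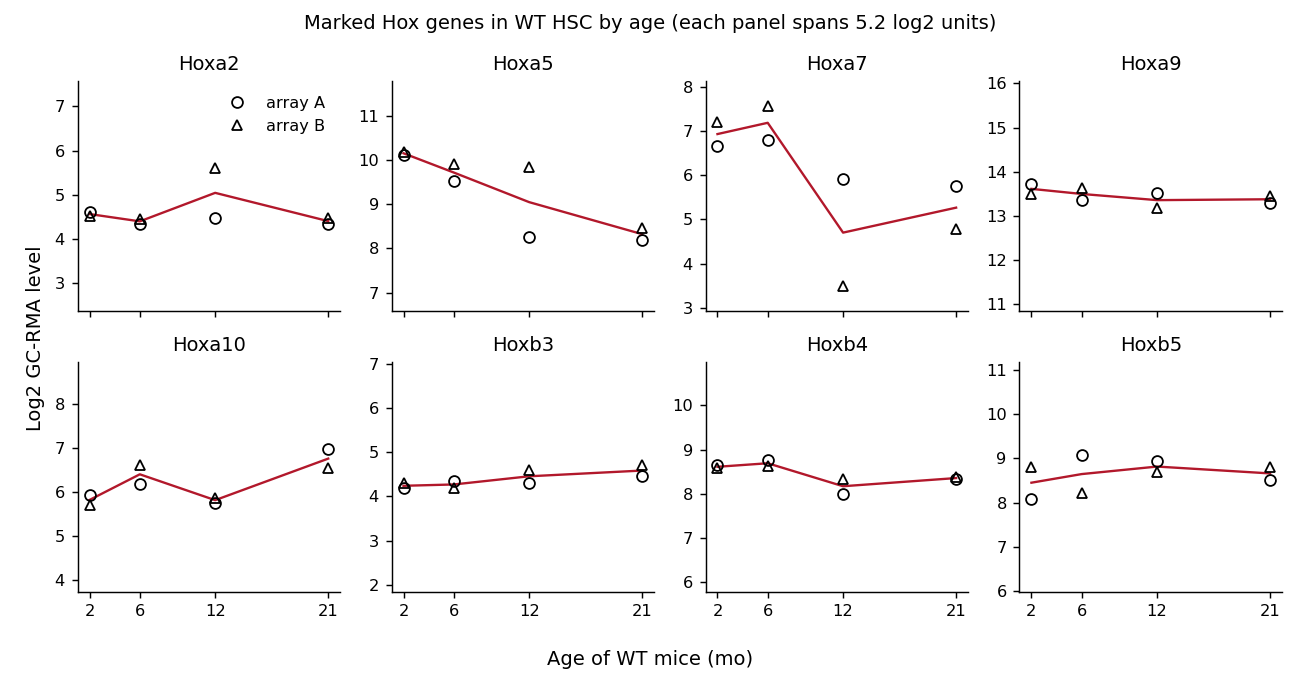
Log2 GC-RMA level (vertical axes, each panel spanning 5.2 log2 units) of the 8 Hox genes in WT HSC against the age of the mice in mo (horizontal axes). Points are arrays A (circles) and B (triangles), and lines join the group means. The 12 mo arrays read 8.26 and 9.83 for Hoxa5 and 5.91 and 3.49 for Hoxa7, whereas Hoxa9 stays between 13.19 and 13.72 on all 8 arrays.

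The 12-mo-old p53 mutants were compared with each other and with WT mice of the same age, to ask how p53 activity changes the stem cell transcriptome. No Hox gene passed limma's test (group means over the 12 HSC arrays) in any of the 3 comparisons. The background was 0.218% of genes called between p53+/m and p53+/-, 0.444% between p53+/m and WT, and 0.194% between p53+/- and WT. At an unadjusted p under 0.05 with 2-fold, 1 Hox gene was higher in p53+/m than in p53+/- (Hoxb5, 3.23%, against 1.71% of all genes) and 0 were lower (against 1.86%). By the same rule 1 was higher in p53+/m than in WT (Hoxa5, 3.23%, against 1.44%), 0 were lower (against 3.04%), and 0 differed between p53+/- and WT (against 3.1%). The comparisons with WT share the same WT 12 mo arrays, and p53+/m HSC enter both of their comparisons. The mean level of 12 neutrophil markers was 4.26 and 4.96 in p53+/m HSC, 3.80 and 3.63 in p53+/- HSC, and 4.68 and 5.26 in WT HSC of 12 mo, and its part in the differences of the Hox genes was not tested. None of these markers was called, although S100a8 differed by 3.41, Ngp by 3.28 and S100a9 by 3.01 between p53+/m and p53+/-.

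Hoxb5 read 9.64 and 9.90 in p53+/m HSC, against 8.54 and 8.26 in p53+/- HSC and 8.93 and 8.70 in WT HSC of 12 mo. The p53+/m arrays were above all 10 other HSC arrays, of which the highest was 9.07 (WT 6 mo A). The difference was 1.37 from p53+/- (SE 0.33, unadjusted p = 0.00459, adjusted p = 0.194) and 0.96 from WT (SE 0.33, adjusted p = 0.340), and neither passed.
Hoxb4 read 9.27 and 8.84 in p53+/m HSC, 9.01 and 8.34 in p53+/- HSC, and 8.0 and 8.34 in WT HSC. Its difference between p53+/m and WT was 0.88 (SE 0.24, unadjusted p = 0.00782, adjusted p = 0.196). On the second probe set of Hoxb4 this difference was 1.13 (SE 0.30, adjusted p = 0.197), from 6.14 and 7.01 in p53+/m HSC, against 5.54 and 5.36 in WT HSC. On both probe sets the p53+/m arrays were above the WT arrays of 12 mo, and neither difference passed. Hoxb3 read 5.62 and 5.24 in p53+/m HSC, 5.87 and 4.33 in p53+/- HSC, and 4.31 and 4.60 in WT HSC, with a difference of 0.98 between p53+/m and WT (SE 0.44, adjusted p = 0.539). Hoxb3 is among the 8 genes through its mutant readings alone, so its level there is a description.

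For Hoxa5 and Hoxa7, the difference of the p53 groups from WT turned on which 12 mo WT array was used. Hoxa5 read 10.09 and 10.23 in p53+/m HSC, 9.80 and 9.40 in p53+/- HSC, and 8.26 and 9.83 in WT HSC. The difference between p53+/m and WT was 1.12 (SE 0.46, unadjusted p = 0.0446, adjusted p = 0.456). It was 0.33 without WT 12 mo A and 1.90 without WT 12 mo B. Hoxa7 read 6.21 and 5.86 in p53+/m HSC, 6.81 and 6.00 in p53+/- HSC, and 5.91 and 3.49 in WT HSC. Between p53+/- and WT it differed by 1.70 (SE 0.79, adjusted p = 0.672), by 2.92 without WT 12 mo A and by 0.49 without WT 12 mo B. So for Hoxa5 the low WT array was 12 mo A and for Hoxa7 it was 12 mo B. Over all genes, more were called in the fits without 1 of these arrays than with both.
For Hoxa9 the genotypes overlapped, at 13.66 and 13.48 in p53+/m HSC, 13.31 and 13.51 in p53+/- HSC, and 13.53 and 13.19 in WT HSC. Hoxa10 read 5.24 and 5.56 in p53+/m HSC, 6.40 and 5.85 in p53+/- HSC, and 5.76 and 5.87 in WT HSC. Both p53+/m arrays were below both arrays of each other genotype, and the difference of −0.73 from p53+/- (SE 0.25, adjusted p = 0.385) did not pass. Hoxa2 read 4.48 and 4.64 in p53+/m HSC, 5.10 and 4.48 in p53+/- HSC, and 4.48 and 5.61 in WT HSC, so that the genotypes overlapped.
The arrays of p53+/m lay above those of WT at 12 mo in 4 of the 31 genes, Hoxa5, Hoxb3, Hoxb4 and Hoxb5 (12.9%, against 10.7% of all genes), and below them in 2, Hoxa10 and Hoxb2 (6.45%, against 16.4%). Outside the 8 genes, Hoxb1 stood at 2.86 and 4.92 in p53+/m HSC, against 2.72 and 2.52 in p53+/- HSC and 2.54 and 2.88 in WT HSC, so its difference rests on p53+/m B.

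**Figure D5:**
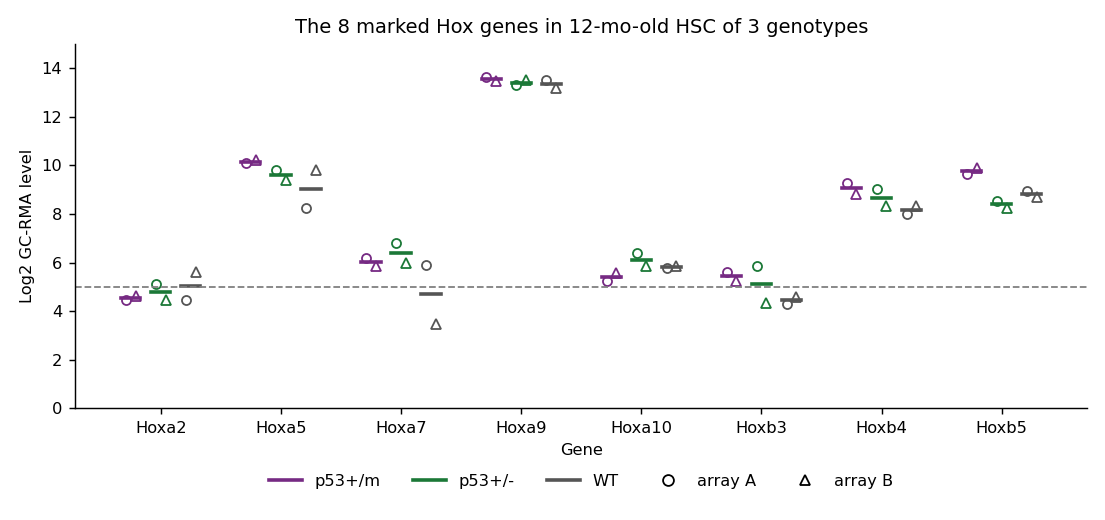
Log2 GC-RMA level (vertical axis) of the 8 Hox genes in HSC of 12-mo-old p53+/m, p53+/- and WT mice, from left to right for each gene, with a point for each array, a bar for each mean and a dashed line at log2 5. The p53+/m arrays of Hoxb5, at 9.64 and 9.90, lie above the other 4, and the WT arrays lie far apart for Hoxa5 and Hoxa7.

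Among the 8 measured TALE cofactors, 3 reached log2 5 on at least 2 arrays, and Meis1, the partner of Hoxa9 in leukemia, was the 1 called in any comparison. Meis1 read 10.77 and 10.92 in HSC of 2 mo, against 6.65 and 6.99 in WBM, a difference of 4.02 (SE 0.38, limma adjusted p = 0.000848). It read 10.77 and 11.35 at 6 mo, 12.48 and 11.40 at 12 mo, and 12.04 and 12.01 at 21 mo, and the change with age of 1.31 (SE 0.37, adjusted p = 0.119) did not pass. The direction of that difference with age was opposite to that of Hoxa5 and Hoxa7. Of the 8 Hox genes at log2 5 on at least 2 arrays, 4 had an upward fitted change with age, as Meis1 did, and 4 a downward one. Hoxa2 counts as upward by a fitted 0.02 only, and both its 21 mo arrays were below both 2 mo arrays. None of these changes passed. In the p53 groups Meis1 read 11.09 and 10.66 in p53+/m HSC and 11.21 and 11.35 in p53+/- HSC. The median difference of the list between HSC and WBM was −0.02.

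Of 16 measured regulators on the trithorax side, 3 were called higher in HSC than in WBM and 0 lower, with a list median of 0.34. The share called higher was 18.8%, where 13.3% of all genes were called higher and 10.5% lower. Aff4, a scaffold of the super elongation complex, differed by 1.59 (10.88 and 11.02 in HSC, against 9.28 and 9.44 in WBM), Men1, which encodes the Mll partner menin, by 1.25, and Mllt1, also of the elongation machinery, by 1.03. Men1 read 4.99 and 5.49 in HSC, against 3.92 and 4.06 in WBM. Mllt1 read 4.99 and 5.55 in HSC, against 3.98 and 4.51 in WBM, so both genes lay near or below log2 5. Kmt2a, which encodes Mll, read 9.58 and 9.94 in HSC, against 9.09 and 8.94 in WBM, and was not called.
Of 25 measured regulators on the Polycomb side, 8 were higher in HSC (32.0%, against 13.3% of all genes) and 2 lower (8.0%, against 10.5%), with a list median of 0.27. The 4 of the higher genes with the largest differences were Phc2 (4.38) and Phc1 (3.08), which encode polyhomeotic subunits of the complex PRC1, Cbx6 (2.62, with 11.32 and 11.68 in HSC, against 8.84 and 8.93 in WBM), which encodes a chromobox protein, and Kdm5b (2.20), which encodes a histone demethylase. The lower ones encode core subunits of the complex PRC2, Ezh2 (−2.76, with 8.44 and 8.06 in HSC, against 11.09 and 10.92 in WBM) and Suz12 (−1.90), while Mtf2, an accessory subunit of PRC2, was higher (1.22, limma adjusted p = 0.000647).

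Of 12 measured genes of the caudal type and other regulators, 0 were higher in HSC (against 13.3% of all genes) and 2 lower (16.7%, against 10.5%), the insulator protein gene Ctcf (−3.79) and Gmnn (−1.89), which encodes the replication inhibitor geminin. Ctcf read 7.90 and 7.49 in HSC of 2 mo, against 11.64 and 11.32 in WBM. In older WT HSC it read 10.17 and 9.98 at 6 mo, 8.96 and 7.79 at 12 mo, and 9.99 and 9.94 at 21 mo. Yy1, a zinc finger factor that had the highest mean of this list in WT HSC, read 12.29 and 12.20 in HSC, against 12.62 and 12.54 in WBM. Of 30 measured homeobox genes outside the clusters, 3 were higher in HSC (against 13.3% of all genes), Tgif2 (3.01), a corepressor in TGFβ signaling, Hlx (2.67) and Zfhx3 (1.06), and 2 lower (6.67%, against 10.5% of all genes), Hhex (−1.46), needed for early blood and endothelial development, and Hopx (−1.15). These lists had medians of −0.03 and −0.02 for HSC against WBM.
With age, 1 gene of these 5 lists was called (against 3.48% of all genes), the homeodomain chromatin organizer Satb1, which is needed for lymphoid development. It read 9.64 and 10.34 at 2 mo, 9.20 and 10.10 at 6 mo, 7.90 and 8.72 at 12 mo, and 7.84 and 7.70 at 21 mo, and fell by 2.40 (SE 0.44, limma adjusted p = 0.0498). It passed in 2 of the 8 fits that each left out 1 array (adjusted p from 0.0325 to 0.198), and those without 12 mo A or 12 mo B were the ones that passed. With the array letter as a replicate block its adjusted p was 0.0524. No gene of these lists was called between the p53 genotypes and WT or between the mutants.

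Many markers of mature cells differed between HSC and WBM, and some differed with age. Between HSC and WBM, 10 of 17 HSC markers were called higher in HSC (58.8%, against 13.3% of all genes). Called lower, against 10.5% of all genes, were 12 of 12 neutrophil, 7 of 8 monocyte and macrophage, 7 of 8 erythroid and 5 of 7 B lineage markers. Smaller shares were lower among T and NK (1 of 6), megakaryocyte and platelet (1 of 6) and endothelial and stromal markers (4 of 14). The remaining monocyte marker, Cd14, was called higher in HSC, at 8.05 and 8.71 in HSC, against 2.23 and 2.42 in WBM (difference 6.06, limma adjusted p = 4.98e-05). With age, the mean of the 12 neutrophil markers was 5.18 and 4.77 at 2 mo and 6.43 and 5.61 at 21 mo. That of the 8 monocyte and macrophage markers was 5.29 and 5.06 at 2 mo and 6.53 and 6.95 at 21 mo. At 6 mo these means were 3.69 and 4.15, and 5.16 and 5.12. The age test called higher 2 of 12 neutrophil markers (Lcn2 and Mmp8) and 3 of 8 monocyte and macrophage markers (Ccr2, Csf1r and Ly86). Mmp8 stayed below log2 5 at 21 mo, at 3.65 and 3.21. Over all genes, 180 of 12393 were called higher by the age test. The B lineage marker Cd79b passed it as lower, at 7.60 and 7.91 at 2 mo and 4.89 and 3.80 at 21 mo (change −3.40, limma adjusted p = 0.0362). It was the 1 called of the 7 B lineage markers, and the largest change among the rest was −0.12 (Ebf1). The rest read below log2 5 in HSC. Mean levels of the HSC markers were 8.09 and 8.21 at 2 mo and 8.56 and 8.69 at 21 mo, and Hlf of that list passed as higher. The part of these markers in the levels of the Hox genes was not tested. The neutrophil and monocyte means were 4.68 and 5.43 on 12 mo A, against 5.26 and 5.28 on 12 mo B. Hoxa5 was low on 12 mo A and Hoxa7 on 12 mo B.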

How the data were processed

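Images of the 14 Affymetrix MOE430A arrays were read with MAS 5.0, and the authors deposited GC-RMA values on the log2 scale, 1 per probe set, corrected for the GC content of each probe and normalized between arrays. Which GCRMA version was used, and whether in 1 run, is not given in the sources used here. The number of arrays limits the precision.

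Gene names came from the probe annotation table: of 22626 probe sets beside 64 controls, 20380 carry 1 symbol, 691 several and 1555 none. Tests used lmFit and eBayes of limma (version 3.58.1, R version 4.3.3) on all 22626 probe sets, with Benjamini-Hochberg adjustment over them and a call at adjusted p under 0.05 and 2-fold, with no filter on low values. Age was fitted as a quadratic trend over the 8 WT HSC arrays, HSC against WBM as group means over the 10 WT arrays, and genotypes over the 12 HSC arrays. Backgrounds are counted over 12393 genes, each on 1 probe set. The fits were tested on simulated data. Arrays with the same letter, A or B, showed little common deviation (correlations between groups ran from −0.307 to 0.163). The lowest was between WT HSC of 6 and 12 mo, where arrays of opposite letters deviated together in part. A block by letter does not capture that.

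Every Hox gene that reached log2 5 on at least 2 arrays is named, and from each gene list up to 4 called genes per direction and the gene with the highest mean in WT HSC. The members and lists were chosen with earlier results of these data known. Further genes (Hoxb1, Hoxb2, Hoxc6, Kmt2a, Mtf2 and some cell markers) were named after their values were seen. Promoters are from RefSeq (GRCm38.p6). The alternatives left out arrays and varied the block, the arrays in the fit, normalization, the filter, the thresholds, averaging of probe sets, the spread estimate and the form of the trend.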

Additional observations from a re-analysis of the deposited data

How the results depend on the processing

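With 2 arrays per group, calls can turn on 1 array. The 6 Hox genes called in HSC against WBM numbered 5 to 7 under all settings, 6 with the replicate block, and Hoxa9, Hoxa5, Hoxb5, Hoxb4 and Hoxa10 passed in each. Hoxb3 passed without WBM A. The count with age, 0, was also 0 with the replicate block. Hoxa5 passed without 12 mo A or without 12 mo B, fits in which calls over all genes rose too. The count was 1 (Hoxa5) without both 12 mo arrays and with group means over all 14 arrays. It was also 1 (Hoxa5) with only probe sets at log2 5 or above on 2 arrays, and at an unadjusted p. Over all genes, 180 were called higher and 251 lower with the settings used here. In the other settings, in that order, these were 567 and 686, 443 and 609, 562 and 726 (of 6384 genes), and 828 and 957. Hoxa5 itself ranged from −2.0 to −1.70 over the settings, with adjusted p from 0.0143 to 0.296. At an adjusted p, each genotype count was 0 with all 12 HSC arrays in the fit. With 1 array left out, the difference of Hoxa5 between p53+/m and WT ran from 0.33 to 1.90. That of Hoxa7 between p53+/- and WT ran from 0.49 to 2.92. Hoxb1 was called without p53+/m A, Hoxa5 without WT 12 mo B and Hoxa7 without WT 12 mo A. Calls over all genes changed in these fits too. At an unadjusted p the count was 1 for p53+/m against p53+/- (Hoxb5) and 1 for p53+/m against WT (Hoxa5). Leaving out 1 array of a group leaves a lone array, which is assumed to vary like the other groups. The cause of these moves was not tested.

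The change of Hoxa2 with age, 0.02, turned to −0.16 without both 12 mo arrays, with group means over all 14 arrays and with group means at the 4 ages, and to −0.02 with a linear trend, and ran from −0.12 to 0.17 when each array was left out. That of Hoxb5, 0.22, ran from −0.04 (without 2 mo A) to 0.49. No adjusted p of these came under 0.05. The 8 Hox genes at log2 5 became 10 at log2 4, with Hoxb6 and Hoxc6, and 6 at log2 6. Hox genes near the floor of the array have no measurable order, which limits folds against WBM.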
